A study of Salmo salar with 72 samples.

Results

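The vitamin D axis was followed through 2 genes of Atlantic salmon (Salmo salar) hepatocytes. LOC106583685 is annotated as a mitochondrial 1,25-dihydroxyvitamin D(3) 24-hydroxylase-like gene and bears the symbol cyp24a1 in the reference gene table. LOC100136371 is annotated as vitamin D3 receptor B. Both were taken by symbol from the 25830 genes of the deposited table and are described over all 72 RNA-seq libraries. The pair had been put forward with earlier results of these data known, among them the low level of LOC106583685 under arsenite. The arsenite values of both are therefore given as estimates with intervals and no p-value, and tests of the pair are kept to arsenate, arsenobetaine and the unexposed groups.

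Vitamin D is made active in steps, first by a 25-hydroxylase, which in mammals sits mainly in the liver, and then by a 1-alpha-hydroxylase. The active hormone binds the vitamin D receptor, a nuclear receptor that pairs with a retinoid X receptor (RXR) on DNA. In mammals the 24-hydroxylase gene is the best known target of the receptor, and its enzyme breaks the hormone down, so that its transcript is widely used as a readout of vitamin D signalling. Salmon carry several copies of both genes after a genome duplication in their ancestry.

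Primary hepatocytes came from 6 male salmon and grew on laminin-coated porous polystyrene scaffolds in medium with serum. They were exposed for 48 h to arsenite (AsIII, the trivalent inorganic form), arsenate (AsV, the pentavalent inorganic form) or arsenobetaine (AsB, a methylated organic form abundant in seafood), each compound on plates of its own with its own control. AsIII was given at 3, 10, 30 and 100 µM and AsB at 10, 50, 100 and 500 µM to cells of all 6 fish. AsV was given at 10, 50 and 100 µM to cells of fish 1 to 3. Group names follow each sample's title, although some further label fields give other compounds or doses. Values are normalized read counts, 1 culture of 1 fish per library, and differences are on the log2(value + 1) scale against the control of the same compound, with their standard error (SE). All cells came from male fish, so nothing here bears on females.

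Depth ran from 30.9 to 86.4 M reads per library (median 38.6 M). Genes listed at 0 had a median of 208.5 in AsIII libraries, 249.5 in AsV libraries and 1608 in AsB libraries, out of the 25830. Fish 1 at 100 µM AsIII (1694) and fish 5 at 30 µM AsIII (1396) stood above the other AsIII libraries in this. Markers of hepatocytes (35 genes) took 10.8 to 15.9% of reads in every library. They took 11.7 to 13.2% at 3 µM AsIII, against 14.4 to 15.2% in the AsIII controls. They took 10.8 to 13.9% at 50 µM AsV and 12.3 to 12.8% at 100 µM AsV, against 14.1 to 15.7% in the AsV controls. Lists of 4 to 9 markers each for stellate cells and fibroblasts, leukocytes, endothelial, biliary and erythroid cells took at most 0.0037% of reads in any library, and no gene of them was at 0 in all libraries of a group. Within that ceiling, medians of these lists differed between AsIII groups. The erythroid range overlapped with that of the controls at each AsIII dose. The leukocyte range did so at each but 30 µM (0.000436 to 0.00116%, controls 0.00121 to 0.00247%). The stellate and fibroblast range (controls 0.002583 to 0.003356%) did so at 3 and 100 µM only. It lay below the controls at 10 µM (0.002015 to 0.002408%) and 30 µM (0.001855 to 0.002427%). Biliary and endothelial ranges overlapped with the controls at each AsIII dose. The biliary median was 0.0003875% at 10 µM, against 0.0008411% in the AsIII controls. The erythroid list had a median of 0.000305% of reads in the AsIII controls and 0.00110, 0.000279, 8.29e-05 and 0.000103% at 3, 10, 30 and 100 µM AsIII. The leukocyte list had 0.00162% in the AsIII controls and 0.00123, 0.000793, 0.000679 and 0.00102% at these doses. Their part in the results was not tested. In bulk RNA, fewer cells and less RNA per cell cannot be told apart.

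In the AsV series, the libraries of fish 3 stood apart and ran against the order of doses. At 10 µM, 19.6% of genes in fish 3 lay at least 2-fold from that fish's own control, against 7.96% in fish 1 and 7.40% in fish 2. At 50 µM, the share was 37.8% in fish 3, against 20.6% in fish 1 and 26.4% in fish 2. At 100 µM it was 21.3% in fish 3, against 30.7% and 33.4% in fish 1 and fish 2. Genes at 0 numbered 1729, 1505 and 1069 in fish 3 at 10, 50 and 100 µM, against at most 676 in the other 9 AsV libraries. Whether the 50 and 100 µM libraries of fish 3 bear the right labels cannot be settled here, and every AsV value at those doses rests on them. The labels are used as they stand, and results on AsV are given with and without fish 3.

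The 24-hydroxylase-like gene LOC106583685 had a lower mean in every AsIII group than in the controls, and the lowest at the lowest dose. In the AsIII controls, fish 1 to 6 had 25067, 24207, 24423, 32405, 22992 and 31763 normalized counts. At 3 µM AsIII the same fish had 3282, 2414, 1596, 1053, 1783 and 1719. Every library at 3 µM lay below every control, and each fish held between 3.25 and 13.1% of its own control.

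Higher AsIII doses left more of this transcript. At 10 µM, fish 1 to 6 had 11999, 9925, 6097, 4227, 7942 and 6371 normalized counts. At 30 µM they had 16965, 20522, 10798, 7803, 13846 and 11332. At 100 µM they had 23405, 18966, 10084, 7305, 15090 and 13235. The groups at 10 and 30 µM did not overlap with the controls. At 100 µM they did, through fish 1, which held 93.4% of its own control, while all 6 fish were still below their own controls. That library is also the AsIII library with the most genes at 0 (1694), and without fish 1 the log2 difference of LOC106583685 at 100 µM was -1.13. Fish 4 was the highest control and the lowest library at each of the 4 doses, with 3.25% of its control left at 3 µM and 22.5% at 100 µM.

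On the log2 scale LOC106583685 differed from the controls by -3.84 ± 0.28 at 3 µM AsIII, -1.86 ± 0.28 at 10 µM, -1.04 ± 0.28 at 30 µM and -0.96 ± 0.28 at 100 µM (SE, n = 6 per group). The 95% interval was -4.42 to -3.26 at the lowest dose and -1.54 to -0.38 at the highest. The step to 10 µM from 3 µM was 1.98 (95% interval 1.403 to 2.560), that to 30 µM from 10 µM was 0.81 (0.24 to 1.39), and that to 100 µM from 30 µM was 0.08 (-0.49 to 0.66). These contrasts lie in the data that chose the gene, and with an adjusted p under 0.05, 54.5% of all genes tested were called at 3 µM, 47.2% at 10 µM, 41.6% at 30 µM and 39.9% at 100 µM.

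**Figure D1:**
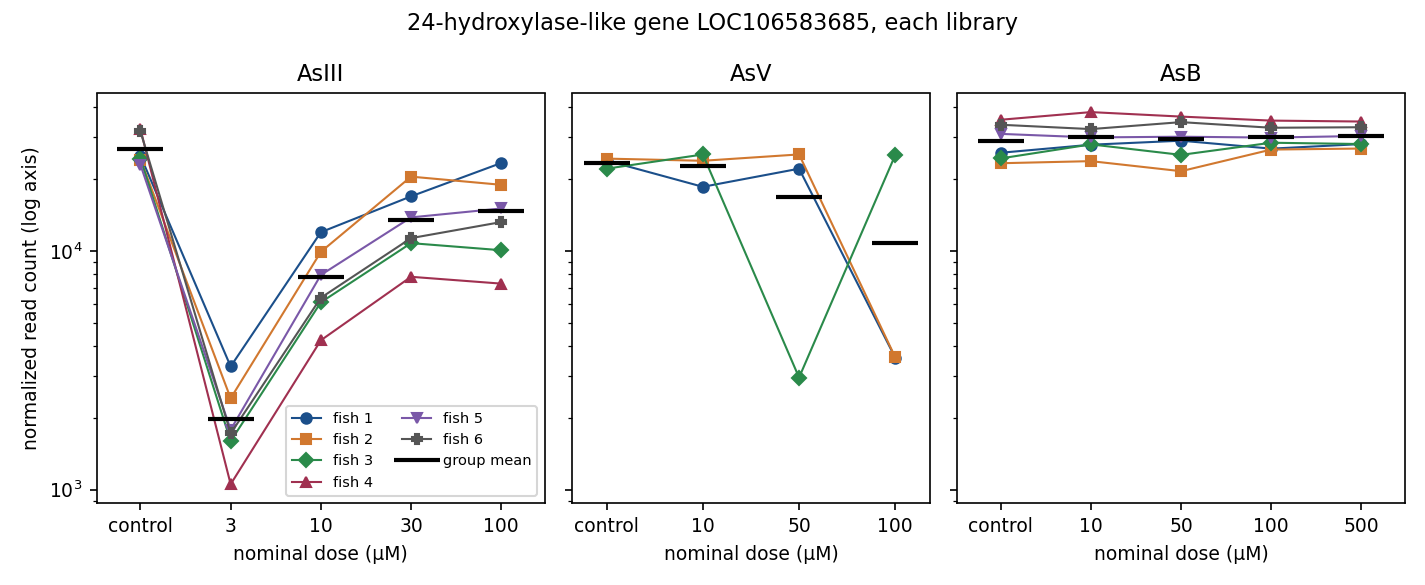
Normalized read count of the 24-hydroxylase-like gene LOC106583685 (log axis) by nominal dose in µM, with 1 panel per compound, a line and symbol for each fish and a black bar for the group mean. Under AsIII all 6 fish are lowest at 3 µM (1053 to 3282), under AsV the low libraries are fish 3 at 50 µM and fish 1 and 2 at 100 µM, and under AsB every library lies between 21629 and 38259.

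Under AsV the same gene was low in 3 libraries, 1 at 50 µM and 2 at 100 µM, and near its controls in the other 6. The AsV controls of fish 1 to 3 had 23954, 24420 and 22164 normalized counts, and at 10 µM AsV they had 18600, 23914 and 25413. At 50 µM they had 22157, 25426 and 2950. At 100 µM they had 3572, 3587 and 25277. Fish 3 at 50 µM kept 13.3% of its own control, and fish 1 and fish 2 at 100 µM kept 14.9 and 14.7%, while the other exposed libraries kept 77.6 to 114.7%. The low library at 50 µM is the fish 3 library in which 37.8% of genes were 2-fold away from control, and the high library at 100 µM is the fish 3 library with 21.3%.

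The log2 difference was -0.07 ± 0.83 at 10 µM AsV, -0.99 ± 0.83 at 50 µM and -1.77 ± 0.83 at 100 µM (SE, n = 3 per group), and limma called none of them (adjusted p = 1, 0.524 and 0.239). The 95% interval at 100 µM ran from -3.60 to 0.05. Among all genes tested, 0, 6.97 and 6.68% were called at the 3 doses. Without fish 3 the difference at 100 µM was -2.76 (adjusted p = 0.00142, n = 2 per group), and at 50 µM it was -0.03 (adjusted p = 0.975). The shares of all genes above are with fish 3. Those without fish 3 are not given here, so this call cannot be read as particular to the gene.

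Under AsB the 24-hydroxylase-like gene lay close to its controls at each dose. The AsB controls ran from 23354 to 35537 normalized counts with a median of 28422. The medians were 28988, 29600, 29191 and 29251 at 10, 50, 100 and 500 µM, and all 24 exposed libraries held 92.6 to 116.3% of their own control. The log2 differences were 0.06, 0.02, 0.06 and 0.07, each ± 0.12 (n = 6 per group, limma adjusted p of at least 0.9997). Their 95% intervals together spanned -0.21 to 0.31. No gene of 25492 was called at any AsB dose (0%), while 542 to 848 a dose had an unadjusted limma p under 0.05. With edgeR 0 and with DESeq2 0 to 2 genes a dose were called. With the fish as a block, 17 genes (0.0667%) were called at 500 µM.

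Control means were 26810 ± 4146 for AsIII (SD, n = 6), 23513 ± 1192 for AsV (n = 3) and 29011 ± 5153 for AsB (n = 6). The 3 differences between these control groups were at most 0.29 in size on the log2 scale, and none was called by limma (adjusted p = 1 for each). Fish 4 and fish 6 were the 2 highest controls for AsIII and for AsB, and the AsV controls hold neither. In fish 1 to 3 alone, controls had 25067, 24207 and 24423 for AsIII, and 25840, 23354 and 24468 for AsB. For AsV they had 23954, 24420 and 22164. Differences from the AsV controls are therefore not on the same animals, while the AsIII and AsB controls hold the same 6 fish. Over the 14 groups, mean normalized counts ascended through AsIII 3 µM (1975), AsIII 10 µM (7760), AsV 100 µM (10812), AsIII 30 µM (13544), AsIII 100 µM (14681), AsV 50 µM (16844), AsV 10 µM (22642), the AsV control and the AsIII control, and then the 5 AsB groups. Only the lowest pair of neighbours, 3 and 10 µM AsIII, had ranges that did not overlap.

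The receptor gene LOC100136371 varied within a much smaller range. In the AsIII controls, fish 1 to 6 had 594.8, 823.1, 584.4, 623.3, 707.6 and 587.5 normalized counts. At 3 µM AsIII they had 826.2, 1062, 774.2, 729.0, 849.6 and 1011. Each fish was above its own control, at 117 to 172.02% of it, although the groups overlapped. At 10 µM they had 699.3, 925.3, 652.8, 859.7, 860.8 and 688.4, again above the own control in 6 of 6 fish. At 30 µM they had 526.4, 562.6, 499.4, 523.6, 781.4 and 529.6, below it in 5 of 6 fish. The exception was fish 5, whose library listed 1396 genes at 0 and without which the log2 difference of LOC100136371 was -0.27. At 100 µM they had 494.1, 676.3, 532.4, 472.0, 492.7 and 467.5, below it in 6 of 6.

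The log2 differences of the receptor gene were 0.42 ± 0.12 at 3 µM AsIII, 0.26 ± 0.12 at 10 µM, -0.20 ± 0.12 at 30 µM and -0.32 ± 0.12 at 100 µM (SE, n = 6 per group). The 95% intervals were 0.17 to 0.67 at the lowest dose and -0.58 to -0.07 at the highest, and the largest step was that to 30 µM from 10 µM, at -0.46 (-0.71 to -0.20). The values at the 2 lower doses depended on the scaling. Under library-size scaling, which set the median of all genes at -0.21 at 3 µM and -0.24 at 10 µM in place of 0.05 and 0.06, they were 0.16 and -0.05. The values at 30 and 100 µM were -0.33 and -0.41 on that scale. Relative to the median of all genes at the same dose, the receptor gene stood at 0.37 at 3 µM and at -0.36 at 100 µM. A change of scaling moves all genes of a library alike. These relative values are therefore nearly equal on both scales by construction, and are no check on the scaling.

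**Figure D2:**
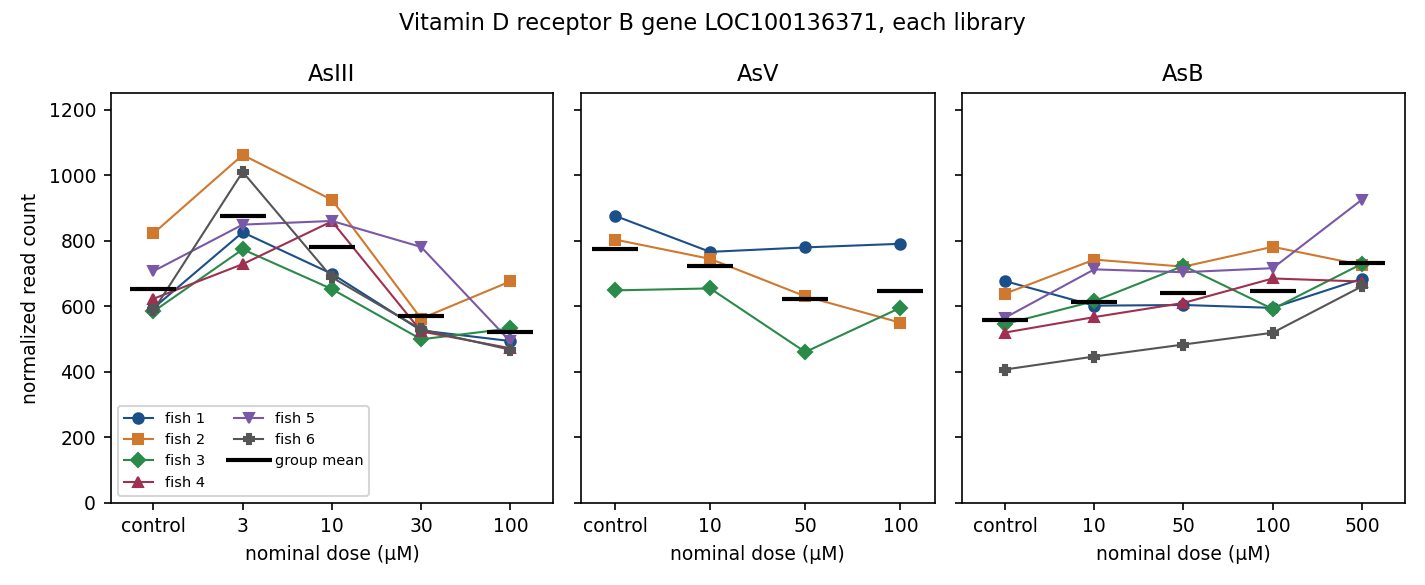
Normalized read count of the vitamin D receptor B gene LOC100136371 (linear axis from 0) by nominal dose in µM, drawn as for the 24-hydroxylase-like gene. Group means under AsIII run from 875 at 3 µM to 522 at 100 µM around a control mean of 653, and every exposed group overlaps with its control, while the AsIII groups at 3 and 100 µM do not overlap with each other.

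Under AsV the receptor gene did not pass the test. The AsV controls of fish 1 to 3 had 876.6, 804.0 and 648.8 normalized counts. The same fish had 766.4, 745.0 and 654.8 at 10 µM, 780.0, 630.7 and 460.6 at 50 µM, and 791.0, 550.1 and 595.8 at 100 µM. All 3 fish were below their own controls at 50 and at 100 µM, and the groups overlapped with the controls at each dose. The log2 differences were -0.10, -0.34 and -0.27, each ± 0.23 (limma adjusted p = 1, 0.422 and 0.548), and without fish 3 they were -0.15, -0.26 and -0.35 (adjusted p = 1, 0.685 and 0.419). The intervals at 50 and 100 µM ran from -0.84 to 0.16 and from -0.77 to 0.23.

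Under AsB the receptor gene was a little above its controls at each dose, without a call. The AsB controls ran from 407.1 to 677.1 normalized counts (median 555.7), and the medians were 609.0, 657.4, 640.3 and 705.2 at 10, 50, 100 and 500 µM. At 500 µM the fish 1 to 6 had 684.2, 726.3, 729.9, 675.8, 925.8 and 661.1, and each was above its own control. The log2 difference there was 0.40 ± 0.15 (n = 6, 95% interval 0.09 to 0.71), with an unadjusted limma p of 0.0117 and an adjusted p of 0.9997. At 10, 50 and 100 µM it was 0.14, 0.20 and 0.22 (adjusted p of at least 0.9997), with 5 of 6 fish higher at each. Unexposed, the gene averaged 653 ± 95.1 in AsIII controls, 776 ± 116 in AsV controls and 559 ± 94.98 in AsB controls (SD). The widest of these differences, AsV over AsB controls, was 0.48 on the log2 scale (95% interval 0.14 to 0.82, limma adjusted p = 1). It sets fish 1 to 3 against 6 fish. The AsB controls had 677.1, 638.8 and 546.1 in fish 1 to 3, and 520.0, 565.3 and 407.1 in fish 4 to 6. Ordered by mean, AsIII 100 µM (522) and the AsB control were the lowest of the 14 groups and AsIII 10 µM (781) and AsIII 3 µM (875) the highest, and all neighbours in that order overlapped.

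The compounds were set against each other at matched nominal doses, over 7 pairs of dose-minus-control differences, with p-values adjusted over all genes within each pair. AsIII and AsB responses were taken over fish 1 to 6 and AsV responses over fish 1 to 3, with no fish term. Differences from AsV are therefore not on the same animals. All 7 pairs come from the fit over 72 libraries, in which each gene has 1 variance for all compounds. For LOC106583685, the fit of AsV alone gave its AsV differences a larger SE than this fit gave the differences in response. Its intervals against AsV are therefore narrower than the spread of the AsV libraries alone would give. For LOC106583685 at 10 µM, the AsIII response lay 1.79 below the AsV response on the log2 scale (95% interval of the difference -2.93 to -0.65) and 1.91 below the AsB response (-2.84 to -0.98). AsIII and AsV differ in the oxidation state of arsenic, and these differences are a description with no test. Of all genes, 10.7% were called between AsIII and AsV at 10 µM and 20.0% between AsIII and AsB. At 100 µM the AsIII response lay 0.82 above the AsV response (-0.33 to 1.96) and 1.02 below the AsB response (-1.95 to -0.09), where 14.1 and 13.2% of all genes were called. Without fish 3 the value against AsV was 1.86. At 10 µM AsIII, fish 1 to 3 held 47.9, 41 and 24.96% of their own control for LOC106583685. Fish 4 to 6 held 13.04, 34.5 and 20.1% there. At 100 µM AsIII, fish 1 to 3 held 93.4, 78.3 and 41.3%, and fish 4 to 6 held 22.5, 65.6 and 41.7%. The difference between AsIII and AsV in fish 1 to 3 alone was not tested.

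Between AsV and AsB, the difference in response of LOC106583685 was -0.12 at 10 µM (limma adjusted p = 1, 95% interval -1.26 to 1.02) and -1.01 at 50 µM (adjusted p = 0.307, -2.15 to 0.13), where 0 and 9.56% of all genes were called. At 100 µM it was -1.83 ± 0.57 and passed the threshold (adjusted p = 0.0280, 95% interval -2.98 to -0.69), as did 9.78% of all genes tested. This call was lost with edgeR (-1.19, adjusted p = 0.184) and with DESeq2 (-1.17, adjusted p = 0.104), and when any 1 of fish 1, 2, 5 or 6 was left out, where adjusted p-values were 0.295, 0.327, 0.0628 and 0.0606. Without fish 3 the difference was -2.78 (adjusted p = 1.9e-05), and calls over all genes without fish 3 are not given here. The call at 100 µM with all fish rests on a variance shared over the 72 libraries. At that dose the normalized counts had an SD of 12527 under AsV and 3440 under AsB. In the fit of AsV alone, the AsV difference at 100 µM was not called.

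For the receptor gene LOC100136371, the AsV response differed from the AsB response by -0.23 at 10 µM, -0.54 at 50 µM and -0.49 at 100 µM (limma adjusted p = 1, 0.155 and 0.208). The 95% intervals at the 2 upper doses, -1.01 to -0.06 and -0.97 to -0.02, did not reach 0. They too rest on a variance shared over the 72 libraries of all compounds. The AsIII response at 10 µM stood 0.35 above that of AsV (-0.12 to 0.83) and 0.12 above that of AsB (-0.27 to 0.51). At 100 µM it stood 0.05 below that of AsV (-0.52 to 0.42) and 0.54 below that of AsB (-0.93 to -0.15).

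The table held a second 24-hydroxylase-like gene, LOC106565076, and 3 more vitamin D receptor genes, which carry tests. They are not members of the pair, but the gene lists that hold them were drawn up with earlier results of these data known. The AsIII p-values of these and of other list genes are therefore no independent support. LOC106583685 and LOC100136371 lie on 1 chromosome in the deposited table, and their counterparts LOC106565076 and LOC106565233, the other receptor B gene, lie together on another. Copies of a gene can share reads, their sequences were not compared here, and their values are uncertain for that reason.

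LOC106565076 followed the pattern of the first 24-hydroxylase-like gene. At 3 µM AsIII, fish 1 to 6 had 561.7, 555.3, 383.0, 258.8, 435.8 and 351.1 normalized counts, against 6365, 5935, 3999, 3990, 3682 and 4404 in the AsIII controls. The groups did not overlap, and fish 4 was again the lowest library at each AsIII dose. The gene fell by 3.49 ± 0.42 at 3 µM (limma adjusted p = 7.9e-08) and by 2.01 ± 0.42 at 10 µM (adjusted p = 0.000296). At 30 and 100 µM it differed by -0.84 and -0.79 ± 0.42 and was called with the fish as a block only (adjusted p = 0.112 and 0.139, and 0.00296 and 0.00490 with the block). The step to 10 µM from 3 µM was 1.48 (adjusted p = 0.00851) and that to 30 µM from 10 µM was 1.17 (adjusted p = 0.0465), beside 30.3 and 21.4% of all genes called for these steps and 1.67% for the step to 100 µM.

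Under AsV the second 24-hydroxylase-like gene had the same 3 low libraries. At 50 µM fish 1 to 3 had 3906, 6401 and 841.0 normalized counts, and at 100 µM they had 825.7, 1134 and 6521. The AsV controls had 6959, 5406 and 4553. The differences were -0.17, -1.01 and -1.60 at 10, 50 and 100 µM (limma adjusted p = 1, 0.483 and 0.255). Under AsB they were within 0.13 of 0 (adjusted p of at least 0.9997).

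**Figure D3:**
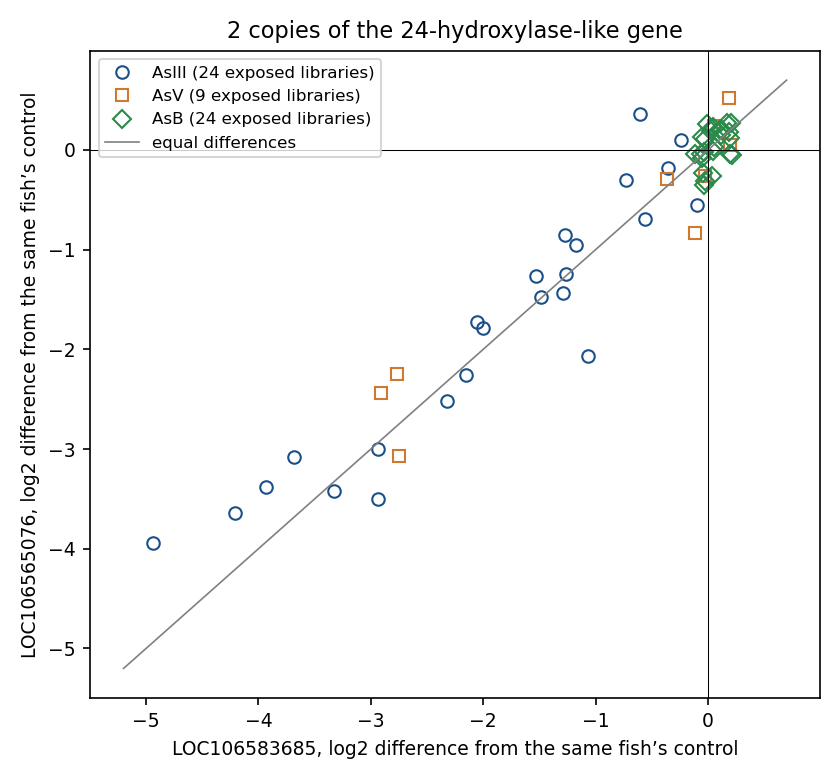
Log2 difference of each exposed library from the control of the same fish and compound, for LOC106583685 (horizontal) and its copy LOC106565076 (vertical), with 24 AsIII, 9 AsV and 24 AsB libraries. The points run along the line of equal differences, from near 0 for AsB (-0.11 to 0.22 for LOC106583685) to the AsIII libraries at 3 µM (-4.94 to -2.93), with 3 AsV libraries between -2.91 and -2.75.

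The receptor copies did not share 1 pattern. LOC106566896, a receptor A-like gene, had 279.2 to 438.0 normalized counts at 3 µM AsIII, against 90.4 to 138.8 in the AsIII controls, with no overlap. It rose by 1.62 ± 0.21 (limma adjusted p = 1.03e-07). At 10 µM it differed by 0.52 ± 0.21 (adjusted p = 0.0469), a call lost with edgeR (adjusted p = 0.0804), DESeq2 (0.0609) and library-size scaling (0.418), and without any 1 of fish 1 to 5. At 30 and 100 µM it stood at -0.49 and -0.45 (adjusted p = 0.0641 and 0.0950, 0.0328 at 30 µM with the fish as a block). The step to 10 µM from 3 µM was -1.10 (adjusted p = 0.000167) and that to 30 µM from 10 µM was -1.01 (adjusted p = 0.000631).

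The gene vdr0, annotated as vitamin D receptor, had 118.3 to 195.6 normalized counts at 100 µM AsIII, against 212.1 to 494.0 in the AsIII controls, with no overlap. It fell by 1.20 ± 0.19 at 100 µM (limma adjusted p = 7.76e-06) and by 0.83 ± 0.19 at 30 µM (adjusted p = 0.000776), and differed by 0.21 and -0.19 at 3 and 10 µM (adjusted p = 0.384 and 0.436). The second receptor B gene LOC106565233 gave 0.17, 0.42, 0.16 and -0.15 ± 0.18 from 3 to 100 µM and no call (adjusted p = 0.459, 0.0557, 0.514 and 0.542), other than at 10 µM with the fish as a block (adjusted p = 0.0140). No receptor copy was called under AsV or AsB. At 50 µM AsV, vdr0 lay below its controls (149.5 to 325.9 normalized counts, controls 332.0 to 445.8). At 100 µM AsV, LOC106565233 did so (250.7 to 563.3, controls 610.6 to 825.9). Both were below the own control in 3 of 3 fish at 50 and 100 µM AsV. LOC106566896 was above it in 2 of 3 fish at 50 µM and 1 of 3 at 100 µM. At 100 µM the AsIII response of vdr0 lay 1.06 ± 0.31 below its AsB response (adjusted p = 0.0142).

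**Figure D4:**
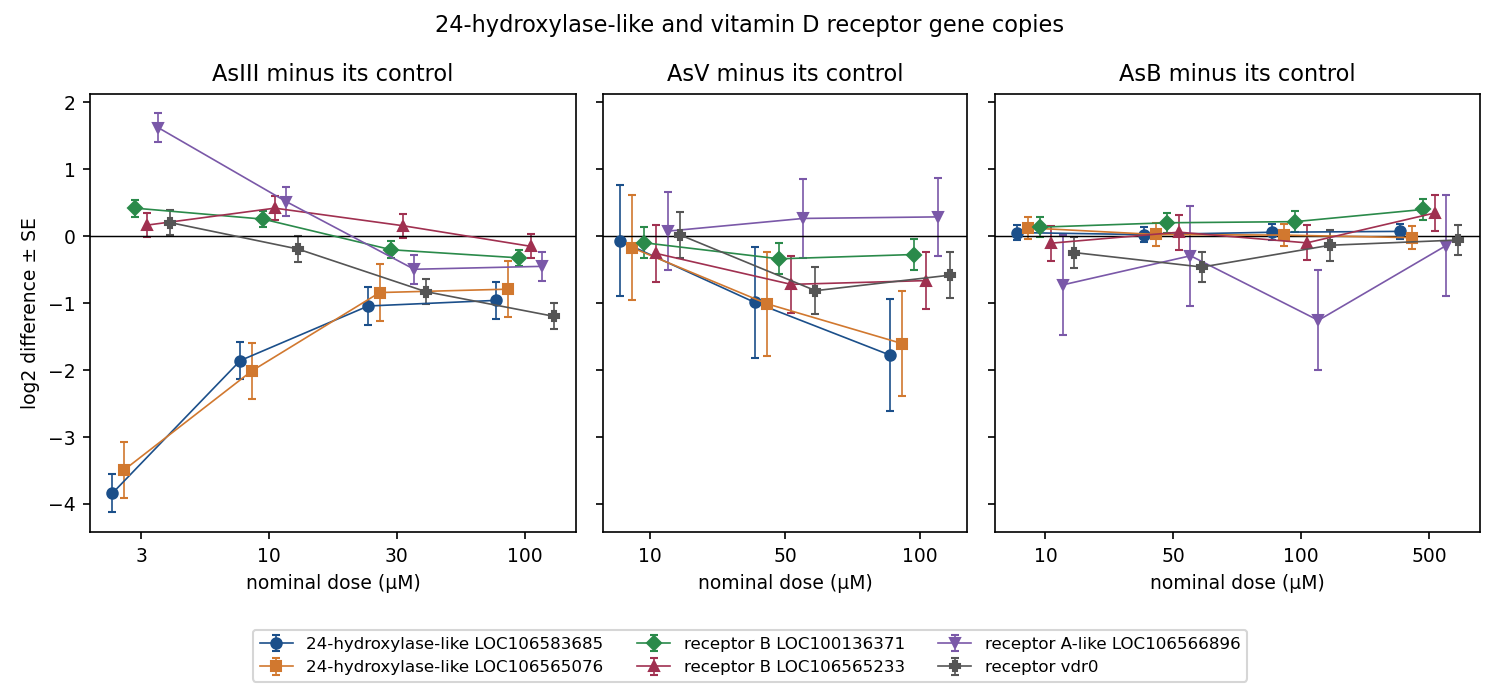
Log2 difference from the control of the same compound (± SE) by nominal dose in µM, for both 24-hydroxylase-like genes and all 4 vitamin D receptor genes. Under AsIII the 24-hydroxylase-like genes start at -3.84 and -3.49 and approach -1 at 30 and 100 µM, while the receptor A-like gene starts at 1.62 and vdr0 ends at -1.20.

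Both 25-hydroxylase-like genes, whose mammalian counterpart CYP2R1 carries out the first activating step, rose at 3 and 10 µM AsIII. The 25-hydroxylase-like gene LOC106562333 had 1096 ± 244 normalized counts in cells given 3 µM AsIII, against 244 ± 91.03 in unexposed AsIII cells (SD, n = 6 each). It rose by 2.20 ± 0.23, 1.58 ± 0.23, 0.80 ± 0.23 and 1.07 ± 0.23 at 3, 10, 30 and 100 µM (limma adjusted p = 9.95e-10, 9.95e-07, 0.00492 and 0.000341). The other 25-hydroxylase-like gene, LOC106587531, averaged 310 ± 76.6 at 3 µM and 18.9 ± 17.2 in the controls and rose by 4.26 ± 0.51 (adjusted p = 1.9e-08). At 10 µM it rose by 1.45 (adjusted p = 0.0198, lost under library-size scaling with 0.0615 and without any 1 of fish 2, 5 or 6), and at 30 and 100 µM it was not called (adjusted p = 0.508 and 0.0605, 0.00191 at 100 µM with the fish as a block). Both 25-hydroxylase-like genes were called under AsV at 50 and 100 µM with the fish as a block only. LOC106562333 differed there by 1.46 and 1.30 (adjusted p = 0.171 and 0.234, with the block 0.00609 and 0.0108), and LOC106587531 by 3.34 and 3.52 (adjusted p = 0.121 and 0.106, with the block 0.0372 and 0.0312).

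The sterol 26-hydroxylase-like gene LOC106586420, whose mammalian counterpart CYP27A1 acts in bile acid synthesis and can 25-hydroxylate vitamin D, fell under AsIII by 0.65, 0.59, 0.53 and 0.42, each ± 0.14 (limma adjusted p = 0.000188, 0.000720, 0.00250 and 0.0164 from 3 to 100 µM, the last lost without fish 1 or fish 5). Its neighbour in name LOC106586421 was not called at any AsIII dose (-0.36, -0.09, -0.15 and -0.15). The 1-alpha-hydroxylase-like gene LOC106583283 averaged 165.2 ± 106 normalized counts at 3 µM AsIII and 166.3 ± 85.7 in the controls. Its differences were -0.06, 0.17, 0.48 and 0.63 ± 0.47 from 3 to 100 µM, called with the fish as a block at 30 and 100 µM only (adjusted p = 0.0326 and 0.00517). The second 1-alpha-hydroxylase-like gene LOC106565446 was low, at 12.1 ± 10.9 at 3 µM and 8.35 ± 8.44 in the controls, and was not called.

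Mitochondrial hydroxylases take electrons from adrenodoxin and its reductase. Of 6 such genes, 3 rose and 1 fell at 3 µM AsIII, 0 rose and 2 fell at 10 µM, and 0 rose and 5 fell at 30 and at 100 µM. Among all genes tested, 29.5% rose and 25.0% fell at 3 µM, 26.8 and 20.5% at 10 µM, 23.9 and 17.7% at 30 µM, and 22.6 and 17.3% at 100 µM. Of 9 RXR genes, the DNA partners of the receptor, 2 rose and 1 fell at 3 µM, 0 rose and 1 fell at 10 µM, and 0 rose and 3 fell at 30 and at 100 µM, so that 3 of 9 were called at 3 µM, beside 54.5% of all genes. Of 20 cofactor genes, 8 rose and 6 fell at 3 µM, 5 and 4 at 10 µM, 7 and 1 at 30 µM, and 5 and 5 at 100 µM, beside the same shares of all genes. Cubilin (cubn), an endocytic receptor that takes part in renal uptake of vitamin D-binding protein in mammals, averaged 24.3 ± 7.38 normalized counts at 3 µM and 7.32 ± 4.17 in the controls. A gene entered the test with a value of 10 in at least 6 AsIII libraries, so cubn entered it largely through exposed libraries, and its difference of 1.78 ± 0.40 is given with no test.

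**Figure D5:**
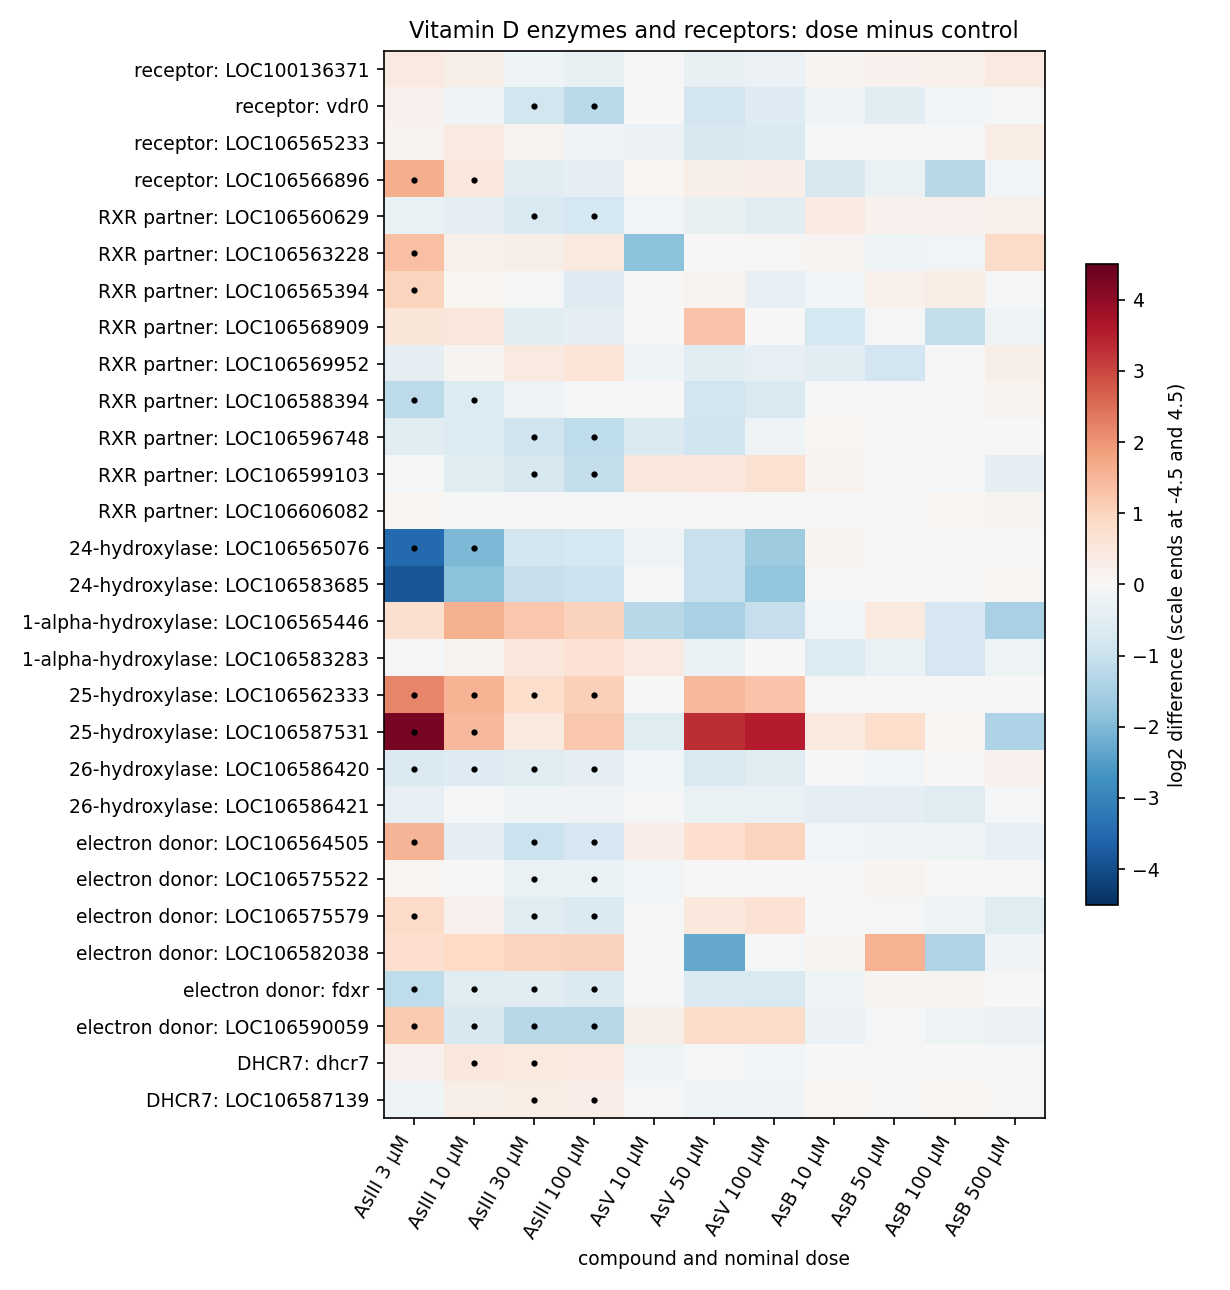
Log2 difference from the control of the same compound for 29 vitamin D receptor, RXR and enzyme genes (rows, grouped by role) at the 11 doses (columns), red for higher and blue for lower. Black dots mark an adjusted limma p under 0.05 and are left out for LOC106583685 and LOC100136371, and all dots lie in the 4 AsIII columns.

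Over the whole vitamin D pathway list (48 genes besides the pair: receptors, RXR genes, enzymes, electron donors, uptake and cofactors), 17 rose and 10 fell at 3 µM AsIII, 10 and 9 at 10 µM, 11 and 11 at 30 µM and 8 and 15 at 100 µM. These counts stand beside the shares of all genes given above, and 1 rise at each dose is that of cubn. The list's median log2 difference was 0.16, -0.01, -0.10 and -0.13 at these doses, beside 0.05, 0.06, 0.04 and 0.04 over all genes. Under library-size scaling the split became 16 and 15, 4 and 19, 6 and 16, and 5 and 17. Of all 25801 genes, 5651, 4366, 4908 and 5028 rose and 9303, 9082, 6137 and 5471 fell at these doses under that scaling. More falls than rises is thus also the split of all genes there.

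A list of 47 genes, named for targets of the vitamin D receptor known in mammals, leaves out the 24-hydroxylase. It held more rises than falls at each AsIII dose, as did all genes tested. At 3, 10, 30 and 100 µM, 16, 22, 15 and 13 of the list rose and 4, 1, 2 and 0 fell. These counts stand beside the shares of all genes given above. With the fish as a block, 21 of the list rose and 2 fell at 100 µM, beside 7151 and 5651 of all 25801 genes. The list's medians without the block were 0.27, 0.50, 0.16 and 0.28. Under library-size scaling 13, 13, 14 and 13 rose and 4, 3, 4 and 1 fell. The counts of all genes under that scaling, with more falls than rises at each dose, are given with the pathway list. Names of the list were matched by product, so that several members are copies of 1 gene. In 3 of them the mean of the AsIII controls was under 10, and they make up 2, 2, 1 and 0 of the rises. By role, 8 of 11 growth and stress genes, 7 of 14 cytochrome P450 3A genes and 5 of 10 hormone and sensor genes rose at 10 µM. So did 1 of 7 calcium and phosphate transport genes and 1 of 5 defence and coagulation genes. At 3 µM these roles held 5, 2, 4, 4 and 1 rises, in that order. Whether the rises depend on the receptor was not tested.

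Among the target genes with the greatest changes, LOC106576064, a cyclin-dependent kinase inhibitor 1-like gene whose product slows the cell cycle, rose by 4.58 ± 0.20 at 3 µM AsIII (limma adjusted p = 1.21e-18) and by 1.08 ± 0.20 at 100 µM (adjusted p = 4.94e-05). A second such gene, LOC106609234, rose by 3.46 ± 0.19 at 3 µM. The growth arrest genes LOC106584172 and LOC106598934, both GADD45 alpha-like, rose by 2.76 and 2.07 at 3 µM. Another such gene, LOC106560326, averaged 25.9 ± 10.95 normalized counts at 3 µM and 8.07 ± 5.66 in the controls, and is given with no test because it entered the fit largely through exposed libraries. The fibroblast growth factor 23-like gene LOC106609463, named for a phosphate-regulating hormone, averaged 55.8 ± 17.3 normalized counts at 3 µM and 3.30 ± 3.25 in the controls, a difference of 4.12 ± 0.77 given with no test for the same reason. The growth factor binding gene igfbp-1a1 rose most at 10 µM (2.14 ± 0.26), and thrombomodulin-like LOC106571465, a clotting regulator, most at 100 µM (1.99 ± 0.30). The binding protein gene igfbp-3a1 and the calcium-sensing receptor-like gene LOC106581479 rose by 1.88 and 1.91 at 10 µM (adjusted p = 0.0144 and 0.00515), and igfbp-3a1 was not called without fish 4 or fish 6 (adjusted p = 0.0666 and 0.0517). The thioredoxin-interacting protein gene txnip, a redox regulator and a vitamin D3-inducible gene in human cells, fell by 2.65 ± 0.27 at 3 µM AsIII (adjusted p = 1.44e-09), by 2.40 at 10 µM and by 1.20 at 30 µM. Other copies of these genes were not called at 3 µM. They are the cyclin-dependent kinase inhibitor 1-like gene LOC106565657 (symbol cdkn1a in the reference gene table), GADD45 alpha-like LOC106568974 and thioredoxin-interacting protein-like LOC106570200.

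Under AsV, 0 pathway genes were called at 10 µM, 1 fell at 50 µM and 0 were called at 100 µM (0, 13 and 10 with an unadjusted limma p under 0.05). Of 45 target genes tested, 0, 2 and 3 were called, all falls. Of all genes, 4.23% rose and 2.74% fell at 50 µM, and 4.47% rose and 2.21% fell at 100 µM. With the fish as a block the counts were 0, 3 and 3 for the pathway and 0, 3 and 5 for the targets. Over all 25465 genes they were 0, 2250 and 2190 with the block. Without fish 3 the counts were 0, 0 and 5 for the pathway, and 0, 2 and 6 for the targets. Calls over all genes without fish 3 are not given here, so these counts cannot be read as particular to the lists. The nuclear receptor coactivator 3-like gene LOC106565793 fell by 1.87 ± 0.38 at 50 µM AsV (adjusted p = 0.0106, 0.121 without fish 3). At 50 and 100 µM, txnip fell, with log2 differences of -1.69 and -2.18 ± 0.39 (adjusted p = 0.0192 and 0.00563), and the fibroblast growth factor 23-like gene LOC106573277 fell by 1.45 and 1.20 ± 0.28 (adjusted p = 0.00781 and 0.0211). The gene tnfsf11, which encodes the bone-resorption signal RANKL in mammals, fell by 1.36 ± 0.37 at 100 µM (adjusted p = 0.0436). The calls on tnfsf11 at 100 µM and on txnip at 50 µM were lost without fish 3 (adjusted p = 0.116 and 0.147). All 6 AsV calls named here were lost without fish 1 (adjusted p = 0.117 to 0.478). Without fish 2, those on LOC106573277 (0.0705 and 0.128), on txnip at 100 µM (0.0561) and on tnfsf11 (0.130) were lost as well. Under AsB, limma called 0 genes of either list at any dose, also with the fish as a block, while 0 to 2 genes of each list had an unadjusted p under 0.05.

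The genes whose pattern was most like that of LOC106583685 were found by Pearson's r of log2 values over all 72 libraries, among 20077 genes with a mean of at least 5 on that scale. They were claudin-7 (cldn7, r = 0.942), the second 24-hydroxylase-like gene LOC106565076 (0.938), the RhoG-like gene LOC106603386 (0.922), the poly(A) ribonuclease subunit pan2 (0.909) and the site-1 protease-like gene LOC106573750 (0.905). Claudin-7, a tight junction protein, had 576 ± 100.7 normalized counts at 3 µM AsIII, against 2955 ± 302 in the AsIII controls. Spearman's rho for these 5 genes was 0.566 to 0.753. In the order named, they ranked 217, 1774, 193, 1886 and 719 by rho, so many other genes were more alike by that measure. By r over the 14 group means they ranked 7, 9, 8, 80 and 3. For the receptor gene LOC100136371 the likest genes reached lower values, namely the Krueppel-like factor 15 gene LOC106583109 (r = 0.668), the inward rectifier potassium channel 2-like gene LOC106606388 (0.667), the kinase genes LOC106566942 (0.617) and LOC106601832 (0.612), and its counterpart LOC106565233 (0.597). Between LOC106583685 and LOC100136371 themselves r was -0.301 and rho -0.267. The 72 libraries share fish and compound groups, so these values describe this table and carry no test.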

How the data were processed

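Libraries were grouped by sample title into 14 groups of 6 (AsIII, AsB) or 3 (AsV). The submitters' processing notes name the aligner HISAT2, featureCounts of Subread, and DESeq2 1.40.2, without saying how each was run. No genome build is named in these notes, hence no position or sequence is printed. The deposited signal is each gene's read count, scaled by the authors with 1 size factor for every library, as the values show. Dividing low values by the worth of 1 read gave whole reads for 100% of values (tolerance 0.01).

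The main test was limma 3.58.1 (R 4.3.3) on log2(value + 1) with trend and robust variances, 1 fit per compound, and 1 fit over 72 libraries for responses and controls. Genes needed a value of 10 in as many libraries as the smallest group. P-values are 2-sided and Benjamini-Hochberg adjusted over all genes tested, with a threshold of 0.05. Intervals are 95% from the fit. This procedure was tested on simulated reads with few changed genes, known scaling and no fish effect. That test does not bear on scaling or on pairing by fish. Pseudocounts of 0.5 and 5, no filter, library-size scaling, edgeR 4.0.16 and DESeq2 1.42.0 on whole reads, the fish as a replicate block and each fish left out were tried. On whole reads at 3 µM AsIII, edgeR called 14194 genes and DESeq2 14539.

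The same fish number means the same animal, so numbers pair libraries. The mean correlation of same-fish deviations was 0.439 for AsIII, 0.216 for AsV (lowest -0.238) and 0.252 for AsB. No fish term enters the main models.

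The members and gene lists were chosen with earlier results of these data known. The genes named are both members, every receptor and CYP24, CYP27 or CYP2R copy, list genes called with an absolute log2 change of at least 1 (at most 15 per compound, which took 15 of 40 for AsIII and 4 of 4 for AsV), and the 5 likest genes. Names came from the table and a RefSeq table (assembly Ssal_v3.1) that matched 23011 of 25830 IDs. Osteopontin and osteocalcin are not analysed here. The lists also hold no gene for TRPV5, TRPV6, calbindin, NCX1, stanniocalcin, CD14, vitamin D-binding protein or megalin.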

Additional observations from a re-analysis of the deposited data

Results flagged for a closer look

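Dixon's test was run on both 24-hydroxylase-like and the 4 receptor genes, each gene in each AsIII and AsB group. Single libraries stood apart from the rest of their group in 7 of these 60 sets, where chance gives about 1 in 20. The genes share libraries, so the sets are not independent. The AsV groups, with 3 libraries each, were not examined in this way. For LOC100136371, fish 5 was high at 30 µM AsIII (781.4 normalized counts, others 499.4 to 562.6) and at 500 µM AsB (925.8, others 661.1 to 729.9). Fish 2 was high for it at 100 µM AsIII (676.3, others 467.5 to 532.4). For LOC106565233, fish 2 was high at 10 µM AsIII (952.9, others 533.6 to 686.9) and at 50 µM AsB (866.9, others 344.9 to 522.9). For LOC106565076, fish 1 was high at 50 µM AsB (7091, others 3863 to 4971). For vdr0, fish 1 was high at 100 µM AsIII (195.6, others 118.3 to 143.0).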

How the results depend on the processing

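Directions and calls on the pair under AsV and AsB, and total counts of list genes called, were alike under most alternatives. Totals were compared within a tolerance and without their split into rises and falls, which moved under library-size scaling as given above. AsIII estimates of the pair were compared within the residual spread of the gene. Under library-size scaling, LOC100136371 differed from control by 0.16 at 3 µM AsIII and -0.049 at 10 µM, and its AsIII response differed from that of AsV by 0.048 and from that of AsB by -0.14 at 10 µM. At 100 µM, the AsIII response of LOC106583685 lay 0.22 above that of AsV with edgeR, and its AsV response differed from that of AsB by -1.19 with edgeR and -1.17 with DESeq2. The cause was not tested. With the fish as a replicate block, called pathway genes were 3 at 50 µM AsV and 3 at 100 µM AsV, and called target genes 5 at 100 µM AsV and 23 at 100 µM AsIII. The block changed no call on the pair under AsV or AsB. Pathway calls at 100 µM AsV were 1 with a pseudocount of 5, 1 with edgeR and 5 with DESeq2, and 2 at 50 µM with DESeq2. Over all genes, DESeq2 called 3229 at 50 µM and 3292 at 100 µM AsV, where limma called 1775 and 1701. For edgeR the count over all genes at 100 µM AsV was 1904, and that with a pseudocount of 5 is not given here. Target calls with DESeq2 were 4 at 50 µM and 6 at 100 µM AsV.

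Leaving out each fish in turn, LOC106583685 differed from control by -0.20 to 0.084 at 10 µM AsV (0.084 without fish 1), -2.76 to -1.28 at 100 µM AsV and -0.0040 to 0.052 at 50 µM AsB (-0.0040 without fish 1). Its AsV response minus AsB response ran from -0.23 to 0.039 at 10 µM (0.039 without fish 1) and from -2.78 to -1.31 at 100 µM, and its AsIII minus AsV response at 100 µM ran from 0.16 to 1.86. Pathway calls ran from 0 to 1 at 50 µM AsV and 0 to 5 at 100 µM AsV, and target calls from 0 to 2 and 0 to 6. Calls over all genes with a fish left out are not given beside them. With 3 fish under AsV, or 2 when 1 is left out, only changes well beyond the spread between fish could be called.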
